A study of Mus musculus with 16 samples.

Results

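The genes of NAD synthesis and consumption examined here were Nampt, Naprt, Nmnat1, Nmnat3, Nadk, Sirt1, Cd38 and Kmo, 8 of the 21938 protein-coding mouse genes with an annotated start site. They were chosen because NAD is the substrate of PARP enzymes, and with earlier results of these data known. Their data were the H3K27ac peaks lying within 50 kb of any annotated start site of these genes. H3K27ac is acetylation of lysine 27 on histone H3, a mark of active promoters and enhancers. When overlapping peaks of all conditions were merged, 82 regions lay in these windows, of 55203 regions in all and 43119 in the windows of any protein-coding gene.

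The cells were primary bone marrow-derived macrophages (BMDMs) from C57Bl6 mice aged 8 to 12 weeks, grown in medium with FBS and LCCM. They were untreated (Control), treated with interferon gamma (IFNγ, 100 ng/mL) for 1 h, treated with the PARP inhibitor PJ34 (20 µM), or given PJ34 1 h before IFNγ (IFNγ+PJ34). All cells carried the same genotype, and the labels do not give the length of exposure for PJ34 alone. Each condition had 2 H3K27ac ChIP samples and 2 input samples, 8 of each kind in all, but the authors combined the replicates into 1 peak list per condition. Thus no value below has a replicate error and no test across replicates could be made. Differences between lists are descriptions of these 4 lists. A missing peak can stand for fewer cells carrying the mark or for less of the mark per cell. It can also stand for a signal that fell short of the peak call in either replicate. These cannot be told apart.

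NAD accepts electrons in metabolism and is also split by enzymes that use it as a substrate. Nampt makes nicotinamide mononucleotide from nicotinamide in the salvage route, which recovers the nicotinamide that such enzymes release. Naprt starts the route from nicotinic acid, the nuclear Nmnat1 and the mitochondrial Nmnat3 join the mononucleotide to an adenylyl group, and Nadk phosphorylates NAD to NADP. Sirt1, a nuclear deacetylase, and Cd38, a membrane glycohydrolase, consume NAD. Kmo hydroxylates kynurenine in the route that builds NAD from tryptophan. PARP-1 and related enzymes consume NAD when they attach ADP-ribose to proteins, and PJ34 inhibits that step.

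The sequences of 4 promoters and of 5 regions outside promoters that the results below turn on are shown first. Mouse promoter sequences were taken from RefSeq (GRCm38.p6, the assembly of mm10), which held 9 entries for 7 of the 8 genes, and the 250 bases before the start site are printed in the direction of transcription. Capitals mark matches, on either strand, to the E-box CACGTG, the interferon regulatory factor core AANNGAAA or the PU.1 site GAGGAAGT. The first pair came from promoters with peaks in all 4 lists at a high rank, and the second pair from the promoters of Kmo and Cd38, whose peaks changed rank or were missing from a list. The Nampt sequence lies at chr12:32820085-32820334 (plus strand), that of Sirt1 at chr10:63339036-63339285 (minus strand), that of Kmo at chr1:175631943-175632192 (plus strand) and that of Cd38 at chr5:43868559-43868808 (plus strand).
Nampt promoter: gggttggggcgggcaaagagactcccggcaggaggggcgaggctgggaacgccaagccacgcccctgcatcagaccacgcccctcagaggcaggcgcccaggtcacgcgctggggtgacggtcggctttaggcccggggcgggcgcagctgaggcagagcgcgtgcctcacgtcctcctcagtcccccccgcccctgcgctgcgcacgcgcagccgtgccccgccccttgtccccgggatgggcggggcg
Sirt1 promoter: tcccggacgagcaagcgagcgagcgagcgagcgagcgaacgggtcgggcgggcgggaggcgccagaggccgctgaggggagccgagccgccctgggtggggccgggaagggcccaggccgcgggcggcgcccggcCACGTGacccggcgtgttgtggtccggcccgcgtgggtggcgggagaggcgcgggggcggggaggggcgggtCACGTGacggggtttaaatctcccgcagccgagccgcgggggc
Kmo promoter: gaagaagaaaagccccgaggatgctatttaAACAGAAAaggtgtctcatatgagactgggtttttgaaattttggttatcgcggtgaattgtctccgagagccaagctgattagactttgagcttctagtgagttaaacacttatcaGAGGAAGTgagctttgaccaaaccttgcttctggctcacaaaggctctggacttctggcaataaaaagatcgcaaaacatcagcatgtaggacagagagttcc
Cd38 promoter: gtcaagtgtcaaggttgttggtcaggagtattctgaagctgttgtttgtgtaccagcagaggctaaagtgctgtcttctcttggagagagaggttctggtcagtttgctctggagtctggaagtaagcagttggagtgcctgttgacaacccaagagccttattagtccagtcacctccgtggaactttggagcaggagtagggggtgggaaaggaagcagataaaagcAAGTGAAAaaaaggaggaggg
The Nampt sequence held 27 CpG dinucleotides and the Sirt1 sequence 39, against 5 in Kmo and 1 in Cd38. G and C made up 75.6% of the Nampt sequence, 79.2% of Sirt1, 42.8% of Kmo and 48.8% of Cd38. The Kmo sequence held an interferon regulatory factor core at position -220 and a PU.1 site at position -103 from the start, and the Cd38 sequence held an interferon regulatory factor core at position -21. In Sirt1 a pair of E-boxes was found. A match describes the letters only and does not show that a factor was bound. Over all 32851 RefSeq promoters of 300 bases, 23.9% held the interferon regulatory factor core, 3.20% the PU.1 site and 7.15% the E-box. Of the 9 entries for these genes, 4, 3 and 2 held them. The 4 sequences shown do not stand for all high-ranking promoters. At the first Nadk start site the sequence held 4 CpG dinucleotides and a PU.1 site, and that of Nmnat3 held 9 and an interferon regulatory factor core. The other Nadk entry held 18, and those of Nmnat1 held 23 and 24.

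Outside promoters, 300 bases were taken around the summit of the highest-ranking peak of each region, on the plus strand of the same assembly. Those shown are the intronic regions of Kmo and Cd38 and the region upstream of Nampt, whose fold enrichment was highest in IFNγ+PJ34 among the 4 lists, followed by a pair of regions with a strict GAS match. GAS is the gamma-activated site, a short element found at IFNγ-responsive genes. It was searched as TTCNNNGAA, and as the strict form TTCCNGGAA, which is a subset of the first. Capitals mark GAS matches and interferon regulatory factor cores. The windows lie at chr1:175640087-175640386 (Kmo), chr5:43884719-43885018 (Cd38), chr12:32796239-32796538 (Nampt, upstream), chr12:32856569-32856868 (Nampt, downstream) and chr10:63416198-63416497 (Sirt1, upstream).
Kmo intron: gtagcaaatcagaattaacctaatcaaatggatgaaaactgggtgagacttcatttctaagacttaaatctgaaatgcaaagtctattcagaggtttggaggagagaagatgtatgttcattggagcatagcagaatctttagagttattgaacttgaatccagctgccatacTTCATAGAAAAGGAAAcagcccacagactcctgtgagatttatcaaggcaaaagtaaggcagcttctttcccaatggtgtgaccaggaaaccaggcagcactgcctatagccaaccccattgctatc
Cd38 intron: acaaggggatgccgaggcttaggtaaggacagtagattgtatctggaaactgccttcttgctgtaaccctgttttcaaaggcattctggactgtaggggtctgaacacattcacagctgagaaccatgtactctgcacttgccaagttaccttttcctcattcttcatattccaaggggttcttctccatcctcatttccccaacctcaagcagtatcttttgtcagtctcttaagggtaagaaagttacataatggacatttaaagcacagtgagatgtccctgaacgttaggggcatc
Nampt upstream: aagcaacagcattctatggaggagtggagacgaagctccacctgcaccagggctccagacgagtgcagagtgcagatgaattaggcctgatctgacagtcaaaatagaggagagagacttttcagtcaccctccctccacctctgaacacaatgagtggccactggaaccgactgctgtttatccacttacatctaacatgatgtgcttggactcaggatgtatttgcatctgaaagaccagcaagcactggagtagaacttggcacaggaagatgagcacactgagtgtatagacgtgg
Nampt downstream: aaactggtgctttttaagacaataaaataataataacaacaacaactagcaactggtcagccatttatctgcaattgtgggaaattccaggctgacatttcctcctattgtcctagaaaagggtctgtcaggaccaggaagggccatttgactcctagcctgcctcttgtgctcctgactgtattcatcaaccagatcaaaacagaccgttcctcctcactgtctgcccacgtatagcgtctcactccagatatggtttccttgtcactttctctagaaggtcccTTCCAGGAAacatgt
Sirt1 upstream: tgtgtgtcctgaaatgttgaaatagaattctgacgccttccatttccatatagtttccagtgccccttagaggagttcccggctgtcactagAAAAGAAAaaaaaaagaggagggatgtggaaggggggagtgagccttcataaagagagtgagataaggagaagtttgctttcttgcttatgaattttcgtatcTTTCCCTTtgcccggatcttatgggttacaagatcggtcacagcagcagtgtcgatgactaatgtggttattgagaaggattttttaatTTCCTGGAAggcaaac
In the Kmo window a GAS match and an interferon regulatory factor core overlapped by a single base. The Cd38 and upstream Nampt windows held none of the motifs searched. Of the 82 regions, 11 (13.4%) had a GAS match in this window, against 8.46% of the 43119 regions near genes, and 2 had the strict form (2.44%, against 0.974%). The interferon regulatory factor core was found in 19 (23.2%, against 29.7%), the E-box in 3 (3.66%, against 4.13%) and the PU.1 site in 1 (1.22%, against 2.17%). None of the 9 promoter entries held a GAS match within its 300 bases.

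Peaks are described by their score percentile, which is the rank of the authors' score within its own list (100 is the highest score), and by fold enrichment, the ratio of ChIP signal to local background. Fold enrichment depends on the background of each list. Over regions found in both lists, the median fold ratio was 0.770 for IFNγ to Control, 0.886 for PJ34 to Control, 1.08 for IFNγ+PJ34 to IFNγ and 0.924 for IFNγ+PJ34 to PJ34. The lists held between 40708 and 44090 peaks. As a check of the labelled cell type, all 7 macrophage marker genes given here (Spi1, Csf1r, Cd68, Adgre1, Itgam, Cd14 and Lyz2) had a promoter peak in every list. The 4 T cell, 3 B cell, 3 fibroblast and 2 hepatocyte markers had none in any list, while of 4 neutrophil markers S100a8 had a peak in IFNγ and PJ34, at percentiles of 4.54 and 25.3, and Elane, Mpo and Ltf had none in any list. The erythroid factor Klf1 and the dendritic cell factor Zbtb46 had a promoter peak in all 4 lists, between percentiles of 53.0 and 74.5 and between 10.4 and 46.0, while Gata1 and Flt3, the other markers of these cell types, had none in any list.

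A promoter peak (one lying 1 kb or less from a start site) was found for all 8 NAD genes in Control, where 50.6% of protein-coding genes had one. IFNγ lacked that of Naprt (49.2% of all genes were marked), PJ34 lacked none (50.5%), and IFNγ+PJ34 lacked that of Cd38 (49.7%). Thus 6 of 8 had a promoter peak in all 4 lists, against 47.8% of all genes, and 2 of 8 had one in some but not all lists, against 4.59%. None of the 8 was without a promoter peak in every list, while 47.6% of all genes were. Since the 8 were chosen with earlier results of these data known, these shares do not speak for NAD genes at large. Of 27 further NAD genes, 13 had a promoter peak in all 4 lists and 10 had none in any. The promoters of Nampt, Nadk, Sirt1, Nmnat3 and Nmnat1 ranked at 75.3 or more in every list, and among these Nmnat3 moved past 10 points in 1 comparison. Those of Naprt, Cd38 and Kmo ranked lower in Control, and moved more or were missing from a list.

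**Figure D1:**
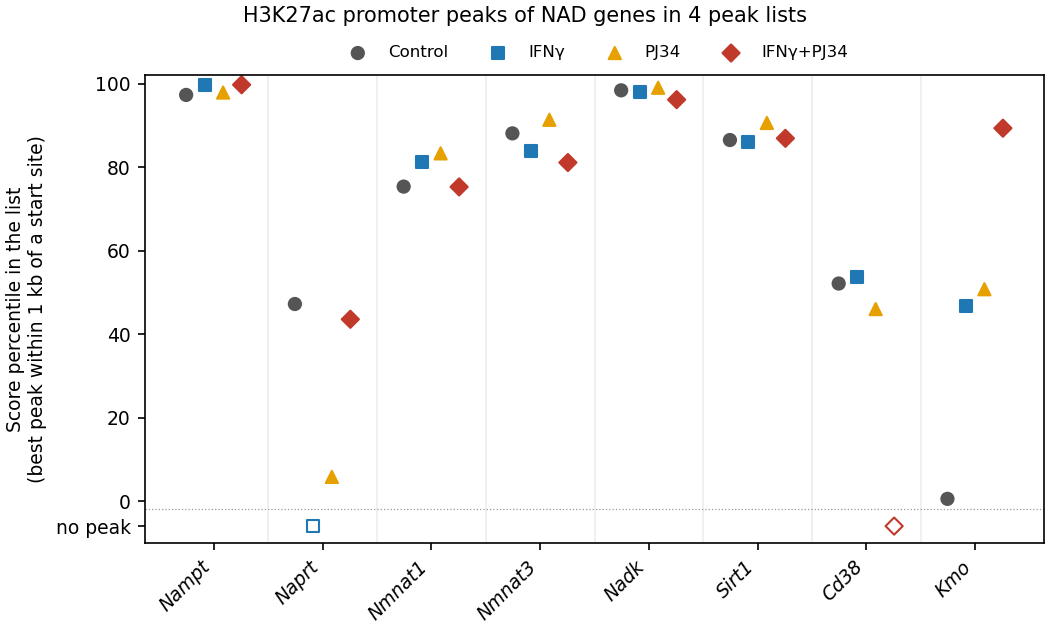
Score percentile (vertical axis, 100 is the highest score) of the best peak within 1 kb of a start site for each of the 8 genes, with 1 point per peak list and open symbols where the list had no such peak. Nampt and Nadk lay above 96 in every list, while Kmo ran from 0.528 in Control to 89.4 in IFNγ+PJ34.

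Nampt, the salvage enzyme, had the most regions of the 8 in its window, 18, with no other protein-coding start site in it. Its best promoter peak had a percentile of 97.3 in Control, 99.8 in IFNγ, 97.9 with PJ34 and 99.8 with IFNγ+PJ34, and a fold enrichment of 58.3, 70.2, 59.3 and 82.2 in the same order. The promoter was split into a region at chr12:32819148-32820174 just before the start site and one at chr12:32820260-32825384 over it, both found in every list. The upstream one ranked 96.2, 99.8, 97.9 and 99.2, and the downstream one 97.3, 99.2, 96.0 and 99.8. Since these promoter peaks were already near the top of each list, their percentile could hardly rise.

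The Nampt regions outside the promoter moved more. An upstream region at chr12:32793471-32797189, with its summit at -24.7 kb from the start site, had a fold enrichment of 6.06 in Control, 23.0 in IFNγ, 13.6 with PJ34 and 36.3 with IFNγ+PJ34. Its percentiles were 55.9, 93.9, 74.2 and 94.2, so it was higher in both IFNγ lists than in the lists without IFNγ. The fold ratio was 3.80 for IFNγ to Control and 2.68 for IFNγ+PJ34 to PJ34. A ratio of 2 or more was found for 3.68% of shared regions near genes in the first comparison and 13.2% in the second.

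Of the 18 Nampt regions, 2 were found in the IFNγ and IFNγ+PJ34 lists alone. The higher-ranking one, at chr12:32816230-32816862, lay at -3.89 kb from the start site and had percentiles of 54.97 and 27.04. Its neighbour at chr12:32815262-32816043 was found in Control (11.5) and IFNγ (50.4) and in neither list with PJ34. A region at -33.7 kb, at chr12:32786286-32787032, was missing from Control only and ranked 50.4 in IFNγ, 42.5 with PJ34 and 15.6 with IFNγ+PJ34. Marked sequence around Nampt came to 10.0 kb in Control, 15.5 kb in IFNγ, 11.0 kb with PJ34 and 17.8 kb with IFNγ+PJ34. The IFNγ value was 1.55 times that of Control, and a ratio of 1.5 or more was found for 3.6% of gene windows. Nampt was the single NAD gene to pass that ratio for IFNγ.

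IFNγ+PJ34 alone held 4 of the Nampt regions, at percentiles of 8.96 to 47.3. Of all 21938 protein-coding genes, 1.58% had 4 or more. That share was taken over all genes, however many regions their windows held. The downstream region with the strict GAS match, at chr12:32855536-32858150 beyond the end of the gene, did not follow IFNγ. Its fold enrichment was 18.7 in Control, 6.71 in IFNγ, 4.35 with PJ34 and 15.4 with IFNγ+PJ34, so it was highest in the untreated and the doubly treated cells.

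**Figure D2:**
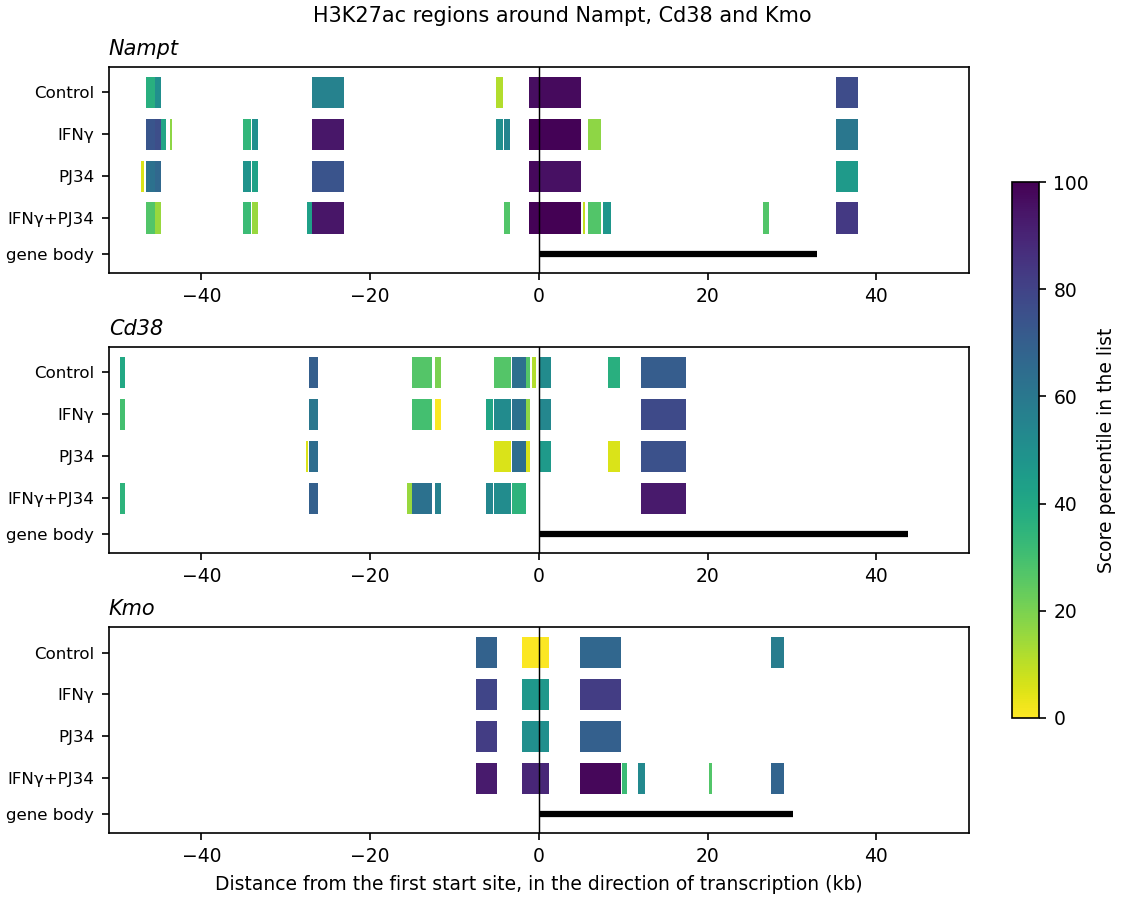
Merged H3K27ac regions around Nampt, Cd38 and Kmo, with a row for each list. The horizontal axis is the distance from the first start site in kb, positive in the direction of transcription, a bar shows that the list had a peak in that merged region (drawn at the width of the merged region), and its colour gives the score percentile. Bars found in IFNγ+PJ34 alone number 4 at Nampt, 1 at Cd38 and 3 at Kmo, the Cd38 promoter bar is missing in that list, and the upstream Nampt region is darkest in both IFNγ lists.

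Naprt, the entry enzyme for nicotinic acid, had a weak promoter peak at chr15:75893771-75894548. Its percentile was 47.2 in Control, 5.78 in PJ34 and 43.6 in IFNγ+PJ34, and no peak was called in IFNγ. The fold enrichment was 6.12, 2.72 and 5.98 in the 3 lists that had it. From Control to PJ34 it fell by 41.4 points. The share of all promoters that fell by 10 points or more, a much lower bar, was 5.49%, and the share that fell as far as Naprt was not taken. The PJ34 peak was near the bottom of its list and dropped out when each list was cut to the 40708 highest-scoring peaks. The peak was thus low or missing under either agent alone and back near its Control level with both. Of the other 11 regions in the Naprt window, most marked promoters of neighbours such as Gsdmd, the pore-forming protein of pyroptosis, and Eef1d. The highest-ranking region outside any promoter, at chr15:75856298-75858727, was found in all 4 lists with percentiles of 91.7, 79.0, 88.2 and 93.2 in Control, IFNγ, PJ34 and IFNγ+PJ34.

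Nmnat1 shares its promoter region at chr4:149484477-149486105 with Lzic, which is transcribed away from it. The region had percentiles of 75.4, 81.2, 83.3 and 75.3 and fold enrichments of 14.1, 18.3, 22.6 and 11.1 in Control, IFNγ, PJ34 and IFNγ+PJ34. By percentile no difference between lists reached 10 points in the comparisons made. A region 39.4 kb after a start site and beyond the end of the gene, at chr4:149445534-149446125, ranked 62.0 in Control, 50.4 in IFNγ and 60.9 in PJ34 and was missing from IFNγ+PJ34. A small peak beside the promoter, at chr4:149486253-149486490, was found in PJ34 alone, at a percentile of 25.3.

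Nmnat3, the mitochondrial enzyme, had a single region in its window, its promoter at chr9:98296436-98298489. It ranked 88.1 in Control, 83.8 in IFNγ, 91.4 with PJ34 and 81.1 with IFNγ+PJ34, with fold enrichments of 28.6, 18.6, 37.9 and 20.3. Both IFNγ lists were below both lists without IFNγ on these measures, and above them in the summed width of the peaks, which was 1857 and 1608 bp against 1548 and 1494 bp. From PJ34 to IFNγ+PJ34 it fell by 10.2 points, and 27% of all promoters fell by at least 10 points in that comparison. When peaks were ranked by width this difference turned to a rise of 3.77 points, and that of IFNγ against Control from -4.30 to 14.3 points.

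Nadk, the NAD kinase, had 4 promoter regions at its 3 annotated start sites. The first, at chr4:155559102-155563419, had percentiles of 98.4, 98.1, 99.0 and 96.2, and the second, at chr4:155563692-155565499, had 92.9, 90.5, 94.6 and 87.2 in Control, IFNγ, PJ34 and IFNγ+PJ34. The last start site had weaker regions on either side. That at chr4:155581638-155582417 was found in the IFNγ (34.3) and IFNγ+PJ34 (50.2) lists alone, while that at chr4:155582530-155583012 ranked 53.6, 38.4, 15.3 and 15.6.

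An intronic Nadk region at chr4:155567274-155568274, 4.31 kb after a start site, had a fold enrichment of 8.64 in Control, 1.63 in IFNγ, 4.47 with PJ34 and 11.0 with IFNγ+PJ34. Its percentiles were 59.7, 0.722, 52.9 and 65.6. The IFNγ list stood apart from the other 3 at this site, with a peak near the bottom of the list.

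The deacetylase gene Sirt1 had a promoter region at chr10:63337465-63340000 that changed little, with percentiles of 86.5, 86.0, 90.6 and 86.9 and fold enrichments of 30.0, 20.9, 32.3 and 24.97. A second promoter region, at the upstream start site (chr10:63382184-63382822), ranked 66.3 in Control, 44.0 in IFNγ, 58.9 with PJ34 and 60.2 with IFNγ+PJ34. Outside promoters, the highest-ranking region was an intronic one at chr10:63327342-63327999, which ranked 36.8 in Control, 0.855 in PJ34 and 15.6 in IFNγ+PJ34 and was missing from IFNγ. The region with the strict GAS match, at chr10:63416107-63416493 with its summit at -34.6 kb, was singled out after its values were seen. It was found in IFNγ (percentile 29.9, fold enrichment 4.14) and IFNγ+PJ34 (27.04 and 4.22) and in neither of the other lists.

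Cd38, the membrane NAD glycohydrolase, lost its promoter peak in IFNγ+PJ34 while an intronic region gained. The promoter region at chr5:43868619-43869987 had percentiles of 52.1 in Control, 53.7 in IFNγ and 46.0 in PJ34, with fold enrichments of 6.996, 6.52 and 5.03, and no peak in IFNγ+PJ34. A small region before it, at chr5:43867769-43868252, was found in Control alone at 11.5. The nearby upstream region at chr5:43865389-43867065 was present in all 4 lists at 63.3, 62.9, 64.6 and 35.5, lowest where the promoter peak was missing.

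In contrast, the intronic Cd38 region at chr5:43880697-43886055 had a fold enrichment of 13.4 in Control, 13.6 in IFNγ, 13.4 with PJ34 and 37.0 with IFNγ+PJ34. The values of the first 3 lists were close and that of IFNγ+PJ34 stood above them. Its percentiles were 70.9, 77.5, 75.1 and 93.2. The ratio of IFNγ+PJ34 to IFNγ was 2.72, and 14% of shared regions near genes had a ratio of at least 2 in that comparison.

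Further upstream of Cd38, 3 regions differed between the lists. The region at chr5:43853521-43855911 ranked 26.9 in Control, 29.9 in IFNγ and 62.9 in IFNγ+PJ34, and that at chr5:43856269-43856899 ranked 19.9, 0.722 and 56.4. Both were missing from PJ34. The region at chr5:43862302-43863086 was found in IFNγ (41.2) and IFNγ+PJ34 (54.3) alone. Over the whole window, marked sequence came to 13.7 kb in Control, 10.8 kb in IFNγ, 8.72 kb with PJ34 and 13.5 kb with IFNγ+PJ34. PJ34 held 0.637 times the Control length, and 12.1% of gene windows shrank by 1.5-fold or more in that comparison. The Cd38 window also reaches the promoter of Bst1, a related ADP-ribosyl cyclase, which ranked 40.2 in Control, 29.9 in IFNγ and 35.5 in IFNγ+PJ34 and had no peak in PJ34.

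Kmo, of the tryptophan route, had the promoter whose percentile differed most between lists among those of the 8 genes. The region at chr1:175629951-175633174 had a percentile of 0.528 in Control, 46.7 in IFNγ, 50.8 with PJ34 and 89.4 with IFNγ+PJ34. Fold enrichment was 1.94, 5.04, 4.48 and 20.0, and the width of the peak was 806, 1069, 732 and 3224 bp. It was thus barely called in Control, of middle rank under either agent alone, and broad and high-ranking with both.

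**Figure D3:**
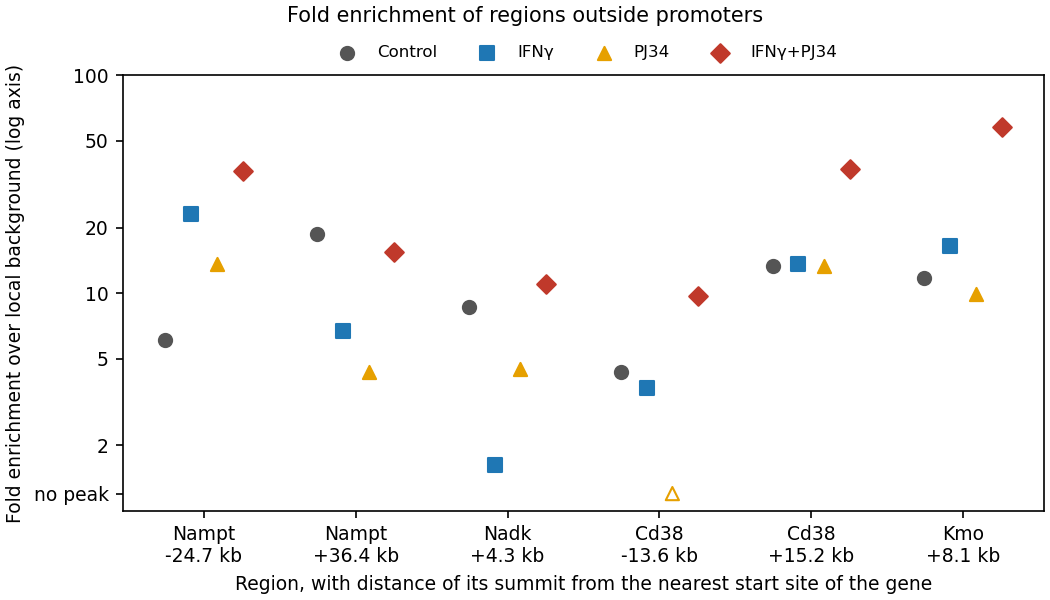
Fold enrichment over local background (vertical log axis) of 6 regions outside promoters, with 1 point per list and an open symbol where no peak was called; the distance of each summit from the nearest start site of the gene is given under its name. The intronic regions of Cd38 and Kmo were highest in IFNγ+PJ34, at 37.0 and 57.7, and the upstream Nampt region was higher in both IFNγ lists than in the lists without IFNγ.

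The rise of the Kmo promoter was 46.2 points for IFNγ over Control and 50.2 for PJ34 over Control. It was 42.6 points for IFNγ+PJ34 over IFNγ and 38.6 for IFNγ+PJ34 over PJ34. A rise at least as large was found in 0.0937%, 0.0276%, 0.444% and 0.393% of promoters with a peak in both lists of these comparisons. From Control to IFNγ+PJ34 the rise was 88.8 points, and of 10709 promoters 1 rose by as much (0.00934%), which was Kmo itself. Control enters 3 of these differences, and its peak was among the lowest-scoring of its list. When each list was cut to the 40708 highest-scoring peaks, the Control peak dropped out. The shares count all promoters with a peak in both lists, including those that started at too high a rank to rise as far. Shares among promoters of similar starting rank were not taken. Among the genes examined, shares of this kind were taken for Kmo alone, whose promoter differed most between lists. The small shares thus do not show how unusual the rise was for a promoter starting at such a rank.

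The intronic Kmo region at chr1:175636915-175641783, with its summit 8.08 kb after a start site, had the highest fold enrichment outside promoters in the windows of the 8 genes. It was 11.7 in Control, 16.4 in IFNγ, 9.92 with PJ34 and 57.7 with IFNγ+PJ34, with percentiles of 66.8, 82.3, 69.7 and 98.4 and peak widths of 1908, 2165, 1657 and 4869 bp. The IFNγ+PJ34 value was 3.52 times that of IFNγ and 5.82 times that of PJ34.

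Within the gene, 3 further intronic regions were found in IFNγ+PJ34 alone. Of all protein-coding genes, however many regions their windows held, 3.44% had 3 or more found in that list alone. The highest-ranking, at chr1:175643741-175644605, had a percentile of 53.0. The region at chr1:175659519-175661048, 27.7 kb into the gene and over an exon, was called in both Control (58.0) and IFNγ+PJ34 (68.4), but in neither single treatment. Marked sequence around Kmo came to 5.75 kb in Control, 5.17 kb in IFNγ, 4.48 kb with PJ34 and 13.9 kb with IFNγ+PJ34, a ratio of 2.69 to IFNγ that 1.82% of gene windows reached. The promoter of Fh1, the fumarate hydratase gene next to Kmo, was also lowest in Control and highest in IFNγ+PJ34, with percentiles of 69.0, 79.6, 82.3 and 92.9 and fold enrichments of 8.94, 16.8, 21.2 and 35.3. Its promoter thus also rose in rank, although in fold enrichment PJ34 lay above IFNγ there and below it at the Kmo promoter.

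The promoters whose 4 percentiles lay nearest to those of Kmo were sought among 10478 other genes with a peak in all lists. They were Ccl7, a monocyte-attracting chemokine, with 19.9, 46.7, 56.3 and 79.9, Mmp13, a collagenase, with 26.9, 58.4, 56.3 and 75.8, and Aloxe3, a lipoxygenase, with 11.5, 48.7, 54.8 and 48.7. The summed absolute difference from Kmo over the 4 lists was 34.4, 57.2 and 57.6 points. Each of the 3 was above its Control rank in the other lists, and Aloxe3 did not rise further with both agents.

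Across the 8 windows, the lists held 65 peaks in Control, 66 in IFNγ, 60 with PJ34 and 74 with IFNγ+PJ34. Of the 82 regions, 37 were found in all 4 lists (45.1%, exact 95% interval 34.1 to 56.5%), against 43% of regions near genes. Intervals here are Clopper-Pearson intervals, cover counting error only and treat neighbouring peaks as independent. Among the 82, promoter regions were most often in all 4 lists, 10 of 14 for members and 13 of 18 for neighbours. Inside the member genes this was so for 4 of 18 regions, for 9 of 27 intergenic regions and for 1 of 5 inside other genes. Shares by class were not taken over all regions near genes, so whether this is particular to these windows was not tested. Regions found in a single list numbered 5 for Control (11.4% of regions near genes), 3 for IFNγ (3.75%), 4 for PJ34 (8.46%) and 12 for IFNγ+PJ34 (9.18%), and the last made up 14.6% of the 82. A further 5 of 82 (6.10%) were found in IFNγ and IFNγ+PJ34 and in neither of the others, against 2.15% near genes. These 5 were in the windows of Nampt, Nadk, Sirt1 and Cd38, and none was at Kmo.

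For the effect of IFNγ, 13 of 66 IFNγ peaks were absent from Control (19.7%, 10.9 to 31.3%, against 14.8% near all genes), and 12 of 65 Control peaks were absent from IFNγ (18.5%, 9.92 to 30.0%, against 29.4%). For PJ34, 7 of 60 peaks were absent from Control (11.7%, 4.82 to 22.6%, against 17.6%), and 12 of 65 Control peaks were absent from PJ34 (18.5%, 9.92 to 30.0%, against 23.1%). In these 4 shares the interval held the value for all genes.

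When PJ34 was added to IFNγ, 18 of 74 IFNγ+PJ34 peaks were absent from IFNγ (24.3%, 15.1 to 35.7%, against 24.1%), and 8 of 66 IFNγ peaks were absent from IFNγ+PJ34 (12.1%, 5.38 to 22.5%, against 21.8%). When IFNγ was added to PJ34, 25 of 74 IFNγ+PJ34 peaks were absent from PJ34 (33.8%, 23.2 to 45.7%, against 22.4%), and 11 of 60 PJ34 peaks were absent from IFNγ+PJ34 (18.3%, 9.52 to 30.4%, against 28.9%). The share of IFNγ+PJ34 peaks absent from PJ34 was the only one whose interval lay beyond the value for all genes. It was 23.0% when a PJ34 peak within 1 kb counted as present, and the share for all genes was not taken under that rule.

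Values at regions found in both lists were compared with those of all such regions near genes, without a test. For IFNγ against Control, 8 of 45 member regions rose by 10 percentile points or more (13.4% near all genes), 11 fell (27.4%), and 4 had a fold ratio of 2 or more (3.68%). For PJ34 against Control, 7 of 46 rose (16.9%), 9 fell (18.8%) and 3 had such a ratio (2.9%). For IFNγ+PJ34 against IFNγ, 13 of 47 rose (24.1%), 10 fell (20.9%) and 9 had a ratio of 2 or more (14%). For IFNγ+PJ34 against PJ34, 10 of 42 rose (20%), 15 fell (30.6%) and 8 had such a ratio (13.2%). The share with a fold ratio of 2 or more was above that near all genes in each of the 4 comparisons. These counts were small, and the comparisons share lists and regions. The upstream Nampt region at chr12:32793471-32797189 and the Kmo promoter passed the ratio for both IFNγ and PJ34 against Control. At the Kmo promoter the Control fold enrichment was only 1.94. For PJ34 against Control the remaining region was the promoter of Fh1, the neighbour of Kmo. Of the 8 regions that rose under IFNγ, 4 lay in the Nampt window and 3 in that of Kmo. Of the 13 that rose when PJ34 was added to IFNγ, 4 lay in the Cd38 window and 3 in that of Kmo. In both cases those in the Kmo window included the promoter of Fh1.

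The length of marked sequence per gene was compared in the same way. Under IFNγ it grew 1.5-fold or more at Nampt alone and shrank as much at Naprt alone (22% of gene windows shrank). In the PJ34 list it was smaller than in Control by as much at Cd38 and larger at none of the 8 (3.37% of windows grew). Relative to IFNγ, the IFNγ+PJ34 length was larger at Kmo (10.6%) and smaller at none (9.62%). Relative to PJ34, the IFNγ+PJ34 length was larger at Nampt, Cd38 and Kmo (9.75% of windows) and smaller at Nmnat1 (17.8%). Relative to Control it was larger at Nampt and Kmo (5.93%) and smaller at Nmnat1 (25%).

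**Figure D4:**
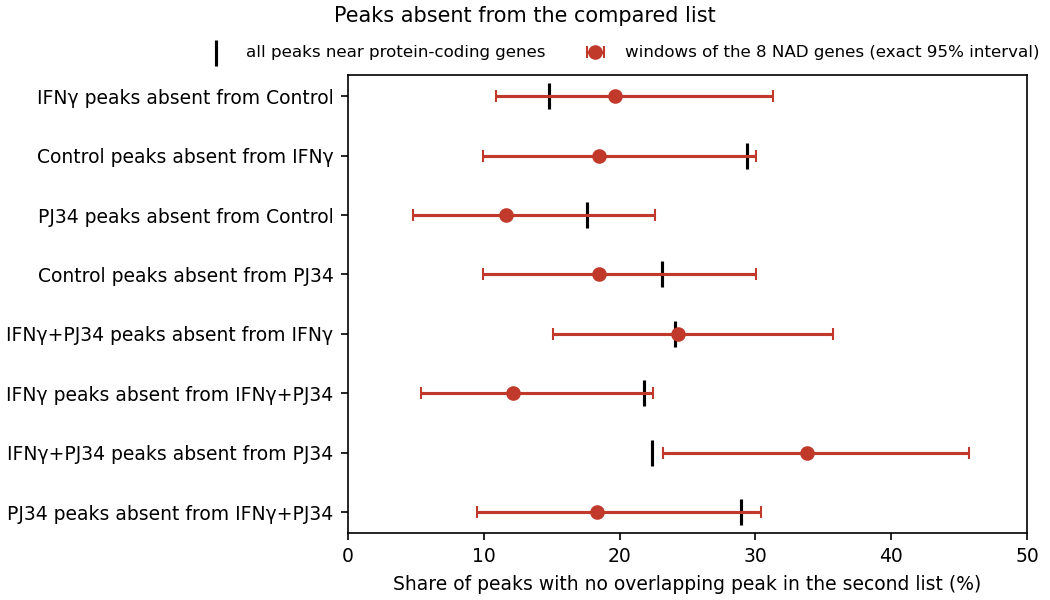
Share of peaks (horizontal axis, %) of the first-named list with no overlapping peak in the second list. Points with bars are the windows of the 8 NAD genes with exact 95% intervals, and vertical ticks are all peaks near protein-coding genes. Of the 8 intervals, that for IFNγ+PJ34 peaks absent from PJ34 lies wholly above its tick at 22.4%. The intervals treat neighbouring peaks as independent.

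Of the promoters with a peak in both lists, 1 of 7 rose by 10 points or more under IFNγ (3.67% of all promoters) and none fell (14.6%). Under PJ34, 1 of 8 rose (6.64%) and 1 fell (5.49%). Between IFNγ+PJ34 and IFNγ, 1 of 6 rose (9.85%) and none fell (15%), and between IFNγ+PJ34 and PJ34, 2 of 7 rose (5.80%) and 1 fell (27%). Kmo was the gene that rose in every one of these comparisons. The median shifts of the members were 1.57, 1.93, -0.97 and -2.85 points, beside -1.39, 0.75, -1.24 and -4.22 over all promoters.

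A list of 27 further genes of NAD synthesis, transport and use was examined in the same way. Of these, 13 had a promoter peak in all 4 lists (47.8% of all genes), 10 had none in any list (47.6%), and 4 had one in some lists (4.59%). The genes without a peak included Ido1, Ido2 and Tdo2, whose products open the tryptophan route, and Haao, Acmsd and Nmnat2. Qprt, which makes the mononucleotide at the end of that route, had a promoter peak in IFNγ+PJ34 alone, at a percentile of 67.3 and a fold enrichment of 11.3. Afmid, an early enzyme of the route, had one in Control alone (36.8), and Nudt12, which hydrolyses NADH, in IFNγ (38.4) and PJ34 (38.2). Bst1 is given above.

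Among the 13 genes marked in all lists, 6 had percentiles that differed by 10 points or more between lists, where 46.7% of all such promoters did. Kynu, the kynureninase that acts next to Kmo in the route, ranked 65.8 in Control, 24.3 in IFNγ, 54.8 with PJ34 and 79.0 with IFNγ+PJ34, lowest in IFNγ and highest with both agents. Sirt5 ranked 55.9, 34.3, 58.9 and 53.0, and the transhydrogenase gene Nnt 75.9, 59.3, 71.2 and 80.3. Each of the 3 was lowest in the IFNγ list. Nadsyn1, which amidates the nicotinic acid form to NAD, ranked 76.6, 77.7, 85.4 and 65.0 and was lowest in IFNγ+PJ34. Over the list as a whole, none of 14 promoters rose by 10 points or more under IFNγ (3.67% of all promoters) and 5 fell (14.6%). Under PJ34, none of 13 rose (6.64%) and 1 fell (5.49%). Between IFNγ+PJ34 and IFNγ, 4 of 14 rose (9.85%) and 2 fell (15%), and between IFNγ+PJ34 and PJ34, 1 of 13 rose (5.8%) and 2 fell (27%).

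**Figure D5:**
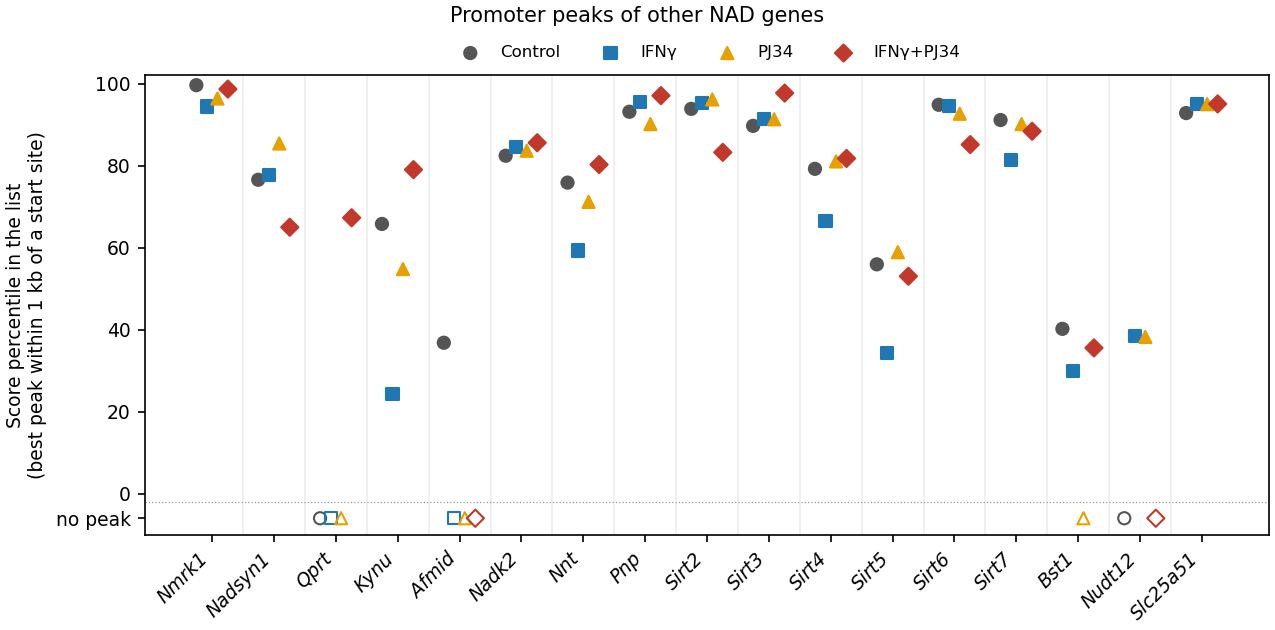
Score percentile (vertical axis) of the best promoter peak of the 17 other NAD genes with a peak in any list, with 1 point per list and open symbols where the list had no peak. Kynu and Sirt5 sit lowest in IFNγ, at 24.3 and 34.3, and Qprt has a peak in IFNγ+PJ34 alone.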

How the data were processed

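H3K27ac ChIP-seq was analysed in 4 conditions. The authors aligned reads to mm10 with Bowtie, filtered them with Samtools and Picard, called relaxed peaks per replicate against input with MACS (p 0.01) and kept peaks found in both replicates, so each deposited list was made from both replicates. The authors' lists give a score (10 to 1000), a fold enrichment ratio and -log10 p and q values per peak. The other deposited column is the summit offset. Scores rose linearly with -log10 p. Columns hold no read counts, so depth is unknown, and the precision of fold enrichment cannot be given.

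Ranks were taken within each list. A peak was absent when no peak of the other list overlapped it by 1 bp, and overlapping peaks were merged into regions. Regions were assigned by edge within 50 kb, and promoters within 1 kb, of start sites in the GENCODE M21 basic set (GRCm38, the build of the peaks). Named were all promoter regions, the highest-scoring region outside promoters, and regions missing from a list with a percentile of 50 or more (otherwise the highest-scoring missing one), and for other NAD genes up to 8 that were missing from some lists or moved by 10 points. The genes, lists and rules were chosen with earlier results of these data known. Groups came from sample titles, and the 8 input samples entered only through the peak caller. A gene of the macrophage marker list is not reported here. Functions were tested on simulated data (9 of 9 checks recovered). Python 3.11.15, pandas 2.3.3 and scipy 1.17.1 were used.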

Additional observations from a re-analysis of the deposited data

Results flagged for a closer look

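At 4 of the 37 regions found in all lists, the percentile moved by 10 points or more in opposite directions under IFNγ without and with PJ34. This was close to the share of such regions near genes, 9.98%. With a single list per condition the difference was not tested. At Nampt, chr12:32773792-32774807 rose by 36.8 points without PJ34 and fell by 35.8 with it (a difference of -72.6), and chr12:32774853-32775508 rose by 25.7 and fell by 51.2 (-76.9). The downstream Nampt region at chr12:32855536-32858150 fell by 16.8 points without PJ34 and rose by 37.5 with it (54.2). The intronic Nadk region at chr4:155567274-155568274 fell by 59.01 and rose by 12.7 (71.7). The Kmo region at chr1:175659519-175661048 was lost under IFNγ without PJ34 and gained under IFNγ with PJ34, where its percentile was 68.4, and this difference was not tested either.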

How the results depend on the processing

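No paired analysis was possible because each deposited list was made from both replicates, which also means that no alternative without a replicate exists. Of 79 shares recomputed under other settings, 70 stayed within the interval of the reported value. With at least 50% of the peak covered, 33.8% of Control peaks and 36.5% of IFNγ+PJ34 peaks were absent from IFNγ. With a peak of the other list within 1 kb counted as present, the share was 9.23% for Control and 9.46% for IFNγ+PJ34 peaks absent from IFNγ, 4.55% for IFNγ and 6.67% for PJ34 peaks absent from IFNγ+PJ34, while 23.0% of IFNγ+PJ34 peaks were absent from PJ34. In the higher-scoring 50% of each list, 25.7% of IFNγ peaks were absent from IFNγ+PJ34, and within 10 kb of a start site 3.85% of PJ34 peaks were absent from Control. The number of promoters past 10 points for IFNγ against Control was 2 by width or with promoters of 2 kb, and 0 in lists of equal length, where it was also 0 for PJ34 against Control, since the Kmo peak of Control and the Naprt peak of PJ34 were no longer in the lists. For IFNγ+PJ34 against IFNγ it was 2 by fold enrichment. Single promoter shifts were recomputed 164 times in all, with each shift entering once per setting in which it could be taken. In 38 of these the reported shift was past 10 points, and 1 of the 38 changed sign. It was that of Nmnat3 from PJ34 to IFNγ+PJ34, which was 3.77 by width, and the cause was not tested. In the other 126 the reported shift was smaller, and 11 changed sign. Of these 11, 2 came to lie past 10 points, Nmnat3 for IFNγ against Control by width (14.3) and Cd38 for PJ34 against Control with promoters of 2 kb (12.5). The Kmo promoter rose by 1.15 points by width from Control to PJ34. Ranking by -log10 p and a fuller transcript set were chosen after seeing the data; they moved no share out of its interval and no promoter shift across 10 points. Depth is unknown, and whether depth or the efficiency of the ChIP moved these values was not tested.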
